A study of Mus musculus with 9 samples.

Results

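Ribosome biogenesis and nucleolar genes were followed across a fibroblast line and its transformed derivatives. The group was chosen by function, with earlier results of these data known. It holds 41 listed genes whose products transcribe, process or assemble the parts of the ribosome. A gene counted as measured where the platform annotation gave a probe set exactly 1 symbol. By this rule 38 of the 41 genes were measured, out of 12393 genes on the array, and Dkc1, Wdr3 and Nob1 had no such probe set. The 38 genes had 70 probe sets, and the brightest probe set of a gene, by its mean over the 9 arrays, stood for the gene. Affymetrix mouse arrays measured total RNA from 3 lines, with 3 arrays each. NIH 3T3 is an embryonic fibroblast line, labelled wild type. SV5 is NIH 3T3 transformed by the large T antigen of SV40, a viral oncoprotein that binds the retinoblastoma proteins and p53. SV5-NN4 holds the same T antigen and wild-type Nras, which encodes a small GTPase of the Ras family. Both derivatives are stable clones and each stands for 1 clone, so a difference between clones and the effect of a transgene cannot be told apart. All 3 lines were grown in medium with 10% calf serum, and the sources used here name no promoter for either transgene.

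A ribosome is built mostly in the nucleolus, around the repeated genes for ribosomal RNA. RNA polymerase I copies these genes into a long precursor. Small nucleolar RNPs (snoRNPs), each made of a guide RNA and a few core proteins, then methylate the precursor (box C/D type) or turn its uridines into pseudouridines (H/ACA type), and the U3 snoRNP takes part in its cutting. Separate sets of assembly factors help to build the small and the large subunit. Transcription of many of these genes is known to be driven by Myc proteins, which bind the E-box CACGTG as dimers with Max, and growth and division of fibroblasts depend on the supply of ribosomes.

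The promoters of the genes were searched for that E-box, because Mycn, which encodes N-Myc, differed widely between NIH 3T3 and the clones (values further on). The windows ran from 250 bases before to 50 bases after each gene start in RefSeq's mouse assembly GRCm38.p6. Of the 41 genes, 35 were matched in the promoter table, and CACGTG, which reads the same on both strands, was found in 7 of them (20.0%), against 2187 of 27025 genes in the table (8.1%). By window this was 7 of 39 (17.9%) against 2349 of 32851 (7.2%). The group was listed as typical Myc-driven growth genes, so a higher share may come from the choice of genes. The other genes in the table were not matched to the members by level or base content, and the shares were not tested. The 4 windows printed here belong to the measured genes with the motif and the largest difference between SV5-NN4 and SV5, and the capitals mark the motif. Wdr43 lies at chr17:71615965-71616264, Mybbp1a at chr11:72441077-72441376, Imp4 at chr1:34439579-34439878 and Tsr1 at chr11:74897830-74898129, all on the plus strand. The first base of the motif stood at position 18 of the Wdr43 transcript, 41 of Mybbp1a and 25 of Tsr1, counted from 1 at the gene start, and at position -121 of Imp4, before its start.
Wdr43: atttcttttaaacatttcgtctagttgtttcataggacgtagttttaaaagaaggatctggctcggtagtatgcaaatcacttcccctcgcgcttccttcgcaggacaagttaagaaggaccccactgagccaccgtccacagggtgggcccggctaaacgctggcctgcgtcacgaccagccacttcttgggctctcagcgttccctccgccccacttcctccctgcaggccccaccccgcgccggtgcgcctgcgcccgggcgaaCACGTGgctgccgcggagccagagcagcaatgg
Mybbp1a: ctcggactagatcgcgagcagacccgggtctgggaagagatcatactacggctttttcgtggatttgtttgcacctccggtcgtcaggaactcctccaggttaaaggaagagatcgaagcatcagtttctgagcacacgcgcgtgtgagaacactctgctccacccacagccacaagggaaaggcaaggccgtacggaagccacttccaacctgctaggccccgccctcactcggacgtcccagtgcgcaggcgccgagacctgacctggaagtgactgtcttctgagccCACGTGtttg
Imp4: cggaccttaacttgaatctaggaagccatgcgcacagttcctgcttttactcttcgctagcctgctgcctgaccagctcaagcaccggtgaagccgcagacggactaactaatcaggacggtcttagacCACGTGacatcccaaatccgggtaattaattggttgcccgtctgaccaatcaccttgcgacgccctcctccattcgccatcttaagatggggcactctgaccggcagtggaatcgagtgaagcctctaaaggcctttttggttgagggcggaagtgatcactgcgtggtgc
Tsr1: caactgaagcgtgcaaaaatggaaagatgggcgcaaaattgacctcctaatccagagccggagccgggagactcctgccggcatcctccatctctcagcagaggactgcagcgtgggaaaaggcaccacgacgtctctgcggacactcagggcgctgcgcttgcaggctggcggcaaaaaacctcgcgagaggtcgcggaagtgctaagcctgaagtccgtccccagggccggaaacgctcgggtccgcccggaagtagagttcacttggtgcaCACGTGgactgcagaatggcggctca
The other members with the motif were Nle1, Nop2 and Pes1. The 7 genes with a CACGTG had a median log2 difference of 0.32 between SV5-NN4 and SV5, within a range of 0.197 to 0.478. The 25 measured genes matched without it had a median of 0.227, within a wider range of -0.174 to 1.001. Nop56, Nhp2, Nolc1 and Noc2l, which had the 4 largest differences of the group, had no CACGTG in their windows. A match is a description of the letters and not a bound site.

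Intensities are given as log2(intensity + 1), in the order of replicate 1, 2 and 3. The members' mean levels ran from 5.42 to 11.80, above the 3.32 to 3.92 of 15 control probe sets for bacterial transcripts, and all but Tsr1 and Nle1 lay above the median probe set level of 5.93. Median array intensity was 56.2 to 62.35, and the number of arrays limits the precision. The 10 fibroblast markers summed to 14.66 to 15.64 on the log2 scale in NIH 3T3, 15.23 to 15.85 in SV5 and 14.54 to 15.21 in SV5-NN4. Epithelial, endothelial, leukocyte and muscle or fat markers summed to 6.38 to 8.81, and 0 of them were called by limma (at an unadjusted p under 0.05, 1 leukocyte marker was lower in each clone against NIH 3T3). The median fibroblast marker differed by -0.846 between SV5-NN4 and SV5, and Pdgfra (-2.10, adjusted p = 0.0032), Thy1 (-1.39, adjusted p = 0.0056) and Col3a1 (-1.05, adjusted p = 0.034) fell; the part of this in the ribosome biogenesis values was not tested. Nras itself averaged 8.24 ± 0.21 (SD, n = 3) in SV5-NN4, 8.18 ± 0.36 in SV5 and 7.46 ± 0.375 in the parent line, and the clones differed by 0.06 (SE 0.14, adjusted p = 0.96 in limma). SV5, whose labels name no added Nras, was above NIH 3T3 by 0.72 (adjusted p = 0.12) and SV5-NN4 by 0.78 (adjusted p = 0.052), each in 3 of 3 pairs. A second Nras probe set differed by 0.97 (adjusted p = 0.12) in SV5 and rose by 1.02 (adjusted p = 0.046) in SV5-NN4, with 0.05 between the clones, and the third differed by -0.03 and 0.24 against NIH 3T3. The labels do not name the part of the transcript that was added, so the array does not check that label. The 3' to 5' ratio of Actb, a sign of RNA quality, was 2.42 to 5.06 on the log2 scale and was higher in SV5-NN4 than in SV5 in every pair, as was that of Gapdh; its part in the results was not tested.

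Most members varied more between replicate numbers than between lines. The share of a member's variance that lay between replicate numbers had a median of 65.5%, against 17.15% between lines. By this measure 30 of 38 members varied more by number than by line. These variance shares were not computed over all genes, so they are not read as particular to the members. In 19 of 38 members (50%) the replicate 2 array was the lowest in all 3 lines, which held for 12.8% of all genes. The share among genes at or above the median level, the closer background for bright members, was not computed. The upper quartile of array intensity was 173.8 to 184.8 on replicate 1, 165.2 to 187.3 on replicate 2 and 218.7 to 239.7 on replicate 3. The part of this in the members' values was not tested. Wdr12, part of the PeBoW complex of large subunit assembly, was the most extreme: 97.6% of its variance lay between numbers, with 6.90 on each array of replicate 1, 5.59 to 6.0 in replicate 2 and 7.64 to 7.85 in replicate 3. Mybbp1a lay at the other end, with 5.12% between numbers and 89.6% between lines. After the mean of each line was subtracted, equal-numbered arrays of different lines correlated over the members at r of 0.06 to 0.94 and the other pairs at -0.87 to 0.32. These ranges overlapped: NIH 3T3 replicate 1 stood at 0.06 with SV5 replicate 1 and at 0.32 with SV5 replicate 3. Over all probe sets the ranges were 0.26 to 0.84 and -0.73 to 0.11. Subtracting the line means makes the deviations within a line cancel, so positive correlations of equal-numbered arrays push the other pairs negative. The negative values are therefore not separate evidence of pairing. Lines were compared within replicate numbers, with the number as a block in limma. The pairing follows the labelled replicate numbers, as in the rule that set the gene group, and the correlation of the arrays. No label says what arrays of equal number share, and the p-values measure the spread between arrays, which may be technical. Exactly equal intensities on 2 or more arrays, as in Wdr12, occurred in 7 of 38 members (18.4%) and in 30.0% of all probe sets.

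**Figure D1:**
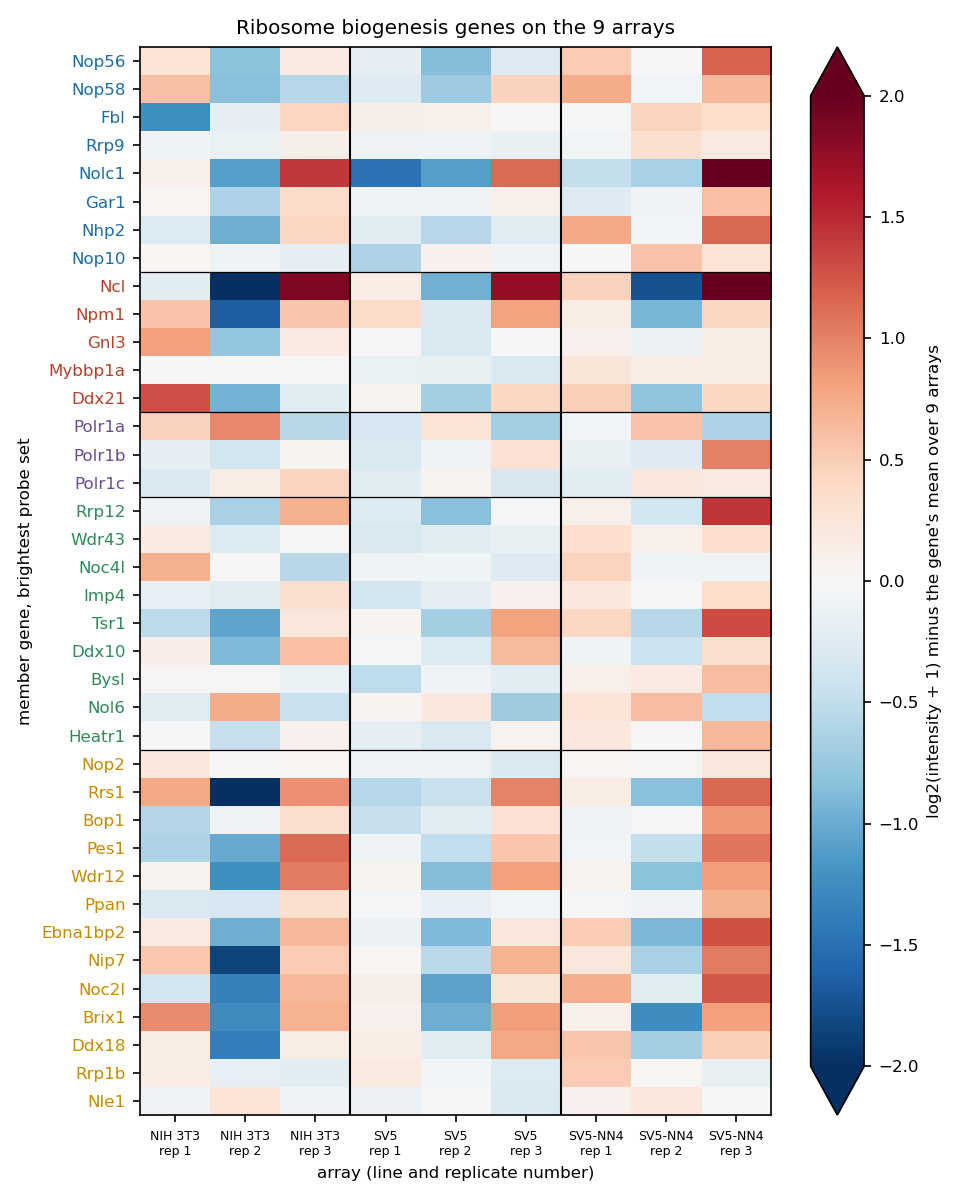
Heat map of the 38 measured members (rows, grouped by role) on the 9 arrays (columns), coloured by log2(intensity + 1) minus the gene's own mean over the arrays. The replicate 2 columns are mostly blue in each line, and 19 of 38 members have their lowest value there in all 3 lines.

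No ribosome biogenesis gene passed the adjusted threshold between SV5-NN4 and SV5, and most lay above 0 in that comparison. Between SV5-NN4 and SV5, 33 of 38 members (86.8%) had a log2 difference above 0, against 52.2% of all genes and 51.4% of genes at or above the median level, and the median was 0.236, against 0.011 over all genes. Called members numbered 0 of 38 against a background of 1.05% of genes called in either direction, by limma with Benjamini-Hochberg adjustment over all probe sets, with adjusted p from 0.065 to 1. At an unadjusted p under 0.05, 13 of 38 members (34.2%) were higher and 0 were lower, where 7.32% of all genes were higher and 7.33% lower. Since most members are bright, the share among genes at or above the median level is the closer background, and 10.9% of those were higher. The count depended on the choice of probe set. With a gene's probe sets averaged, 9 of 38 members (23.7%) were higher, against 7.17% of all genes. Over all member probe sets, 17 of 70 (24.3%) were higher. Within replicate numbers, 22 members (57.9%) were higher in 3 of 3 pairs, against 22% of all genes and 26.6% of genes at or above the median level, and Npm1 and Ddx10 were lower in 3 of 3, against 20.6% and 26.3%. In 7 members every SV5-NN4 array lay above every SV5 array, against 4.74% of all genes and 6.75% of genes at or above the median level, and in 0 below, against 4.32% and 6.36%; the 7 were Nop56, Nhp2, Rrp9, Mybbp1a, Wdr43, Bysl and Nop2. The medians of the single pairs were 0.345, 0.15 and 0.396. With no block for the replicate number, 5 members (13.2%) were higher at an unadjusted p under 0.05, against 2.59% of all genes, and the adjusted p ran from 0.93 to 1. The count of 13 came to 6 without SV5 replicate 1, 8 without SV5-NN4 replicate 1 and 6 without SV5-NN4 replicate 3, while leaving out NIH 3T3 replicate 1 gave 3 adjusted calls (Nop56, Nolc1 and Noc2l) and leaving out NIH 3T3 replicate 3 gave 1 (Noc2l).

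**Figure D2:**
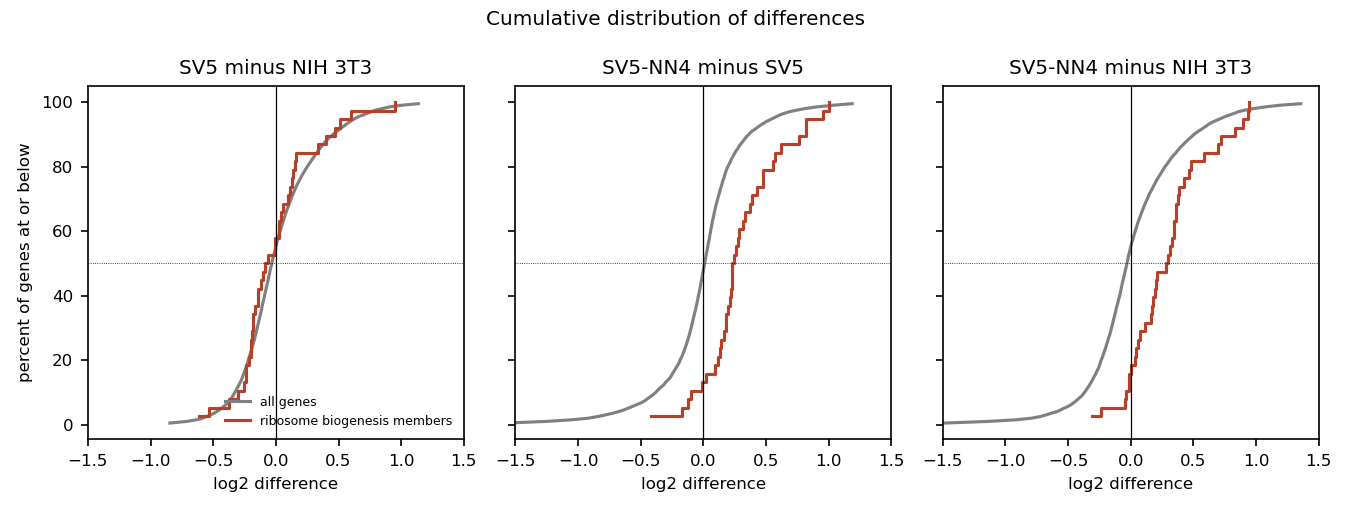
Cumulative distribution of log2 differences over all genes (grey) and over the 38 members (red), 1 panel per comparison, with the percent of genes at or below each difference on the vertical axis. The red line follows the grey one in SV5 minus NIH 3T3 (medians -0.075 and -0.033) and lies to its right in both comparisons of SV5-NN4 (medians 0.236 against 0.011, and 0.29 against -0.03).

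Of the 5 role groups, the snoRNP proteins had the largest median difference between SV5-NN4 and SV5. All 8 measured genes were higher in SV5-NN4, by 0.12 to 1.0 with a median of 0.551, 6 of them in 3 of 3 pairs, and 4 had an unadjusted p under 0.05. Nop56, a core protein of box C/D snoRNPs, read 9.01, 7.93 and 8.92 in NIH 3T3, 8.56, 7.88 and 8.50 in SV5 and 9.25, 8.77 and 9.93 in SV5-NN4. The SV5-NN4 arrays lay above all SV5 arrays, and the line means were 8.62 ± 0.60, 8.32 ± 0.38 and 9.32 ± 0.59 (SD, n = 3). The difference from SV5 was 1.0 (SE 0.18, 95% interval 0.57 to 1.43), which is 2-fold, with an adjusted p of 0.065 in limma. Nop56 was called where only probe sets at or above the median level were tested (adjusted p = 0.048) and where only the compared lines were fitted (adjusted p = 0.022), but not in the fit of all lines reported here. Its other probe set gave 0.64.

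Nhp2, a core protein of H/ACA snoRNPs, read 8.20, 7.49 and 8.87 in NIH 3T3, 8.26, 7.89 and 8.22 in SV5 and 9.22, 8.41 and 9.60 in SV5-NN4. Every SV5-NN4 array exceeded every SV5 array, by pairs of 0.97, 0.52 and 1.38, and the difference was 0.96 (SE 0.21, 1.94-fold, adjusted p = 0.092 in limma). Its other probe set gave 0.69. Nolc1 encodes a chaperone that carries snoRNPs through the nucleus. It read 8.08, 6.87 and 9.38 in NIH 3T3, 6.50, 6.88 and 9.12 in SV5 and 7.50, 7.32 and 10.14 in SV5-NN4. The spread between replicate numbers in Nolc1 exceeded that between lines, and the lines overlapped. Within pairs SV5-NN4 exceeded SV5 by 1.0, 0.45 and 1.03, a mean of 0.82 (SE 0.30, adjusted p = 0.30), but the 3 probe sets of Nolc1 disagreed, with differences from -0.22 to 0.82.

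Among the remaining snoRNP proteins, Nop10, the smallest core protein of H/ACA snoRNPs, differed by 0.48 (SE 0.18, adjusted p = 0.32) and was higher in 3 of 3 pairs. Nop58, the partner of Nop56, differed by 0.62 (SE 0.31, adjusted p = 0.48). Rrp9, a protein of the U3 snoRNP, read 6.73, 6.67 and 6.92 in NIH 3T3, 6.70, 6.71 and 6.65 in SV5 and 6.74, 7.12 and 6.98 in SV5-NN4, so the clones did not overlap although the difference of 0.26 (SE 0.14) had an adjusted p of 0.52. Fbl, the methyltransferase of box C/D snoRNPs, differed by 0.18 and Gar1, another H/ACA protein, by 0.12, each with 2 of 3 pairs higher. The chosen probe sets of Nop56, Fbl, Gar1, Nhp2, Polr1c and Tsr1 carry the suffix that Affymetrix gives to probe sets whose probes match several transcripts, so their values may include related transcripts.

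**Figure D3:**
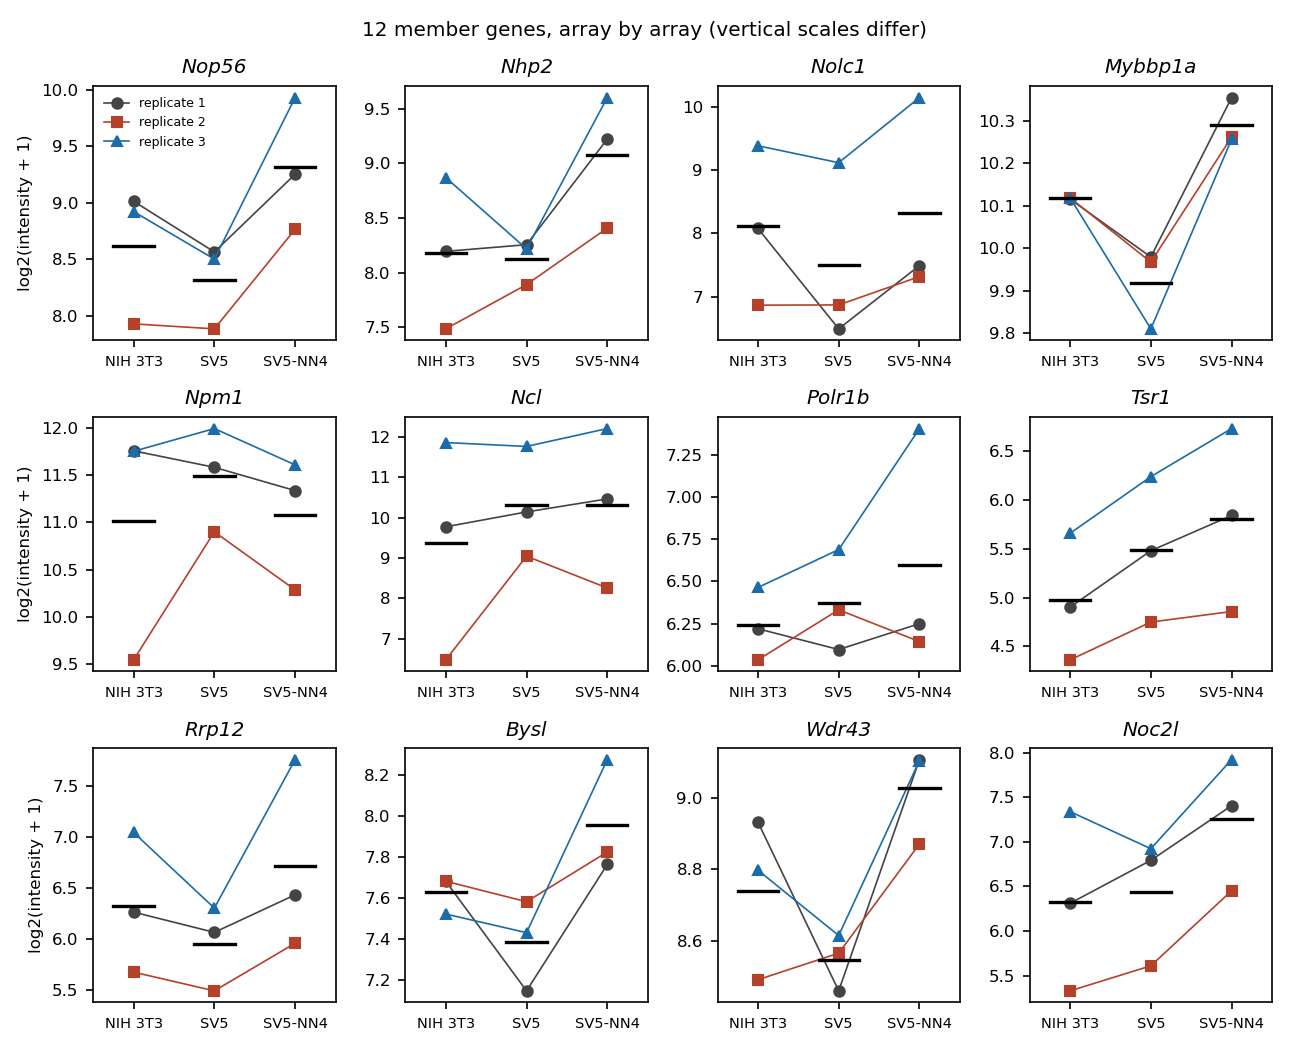
Array values of 12 member genes as log2(intensity + 1) (vertical axes, scales differ) in NIH 3T3, SV5 and SV5-NN4; lines join arrays of equal replicate number and black bars are means of 3 arrays. Nop56, Nhp2, Mybbp1a, Bysl and Wdr43 have every SV5-NN4 array above every SV5 array, and in Nolc1, Ncl and Npm1 the replicate numbers lie farther apart than the lines.

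Of the 9 measured small subunit factors, 8 were higher in SV5-NN4 than in SV5, 7 in 3 of 3 pairs, with a median difference of 0.336 and 5 at an unadjusted p under 0.05. Rrp12, which is needed for export of the subunits, differed most of this set. It read 6.27, 5.68 and 7.04 in NIH 3T3, 6.07, 5.50 and 6.30 in SV5 and 6.43, 5.96 and 7.76 in SV5-NN4, a difference from SV5 of 0.76 (SE 0.21, 1.7-fold, adjusted p = 0.17). Its lines overlapped, and replicate 3 gave a pair difference of 1.45 against 0.37 and 0.47 in the other pairs. Wdr43, a scaffold of the early small subunit precursor whose promoter window is printed above, read 8.93, 8.49 and 8.80 in NIH 3T3, 8.46, 8.57 and 8.62 in SV5 and 9.11, 8.87 and 9.10 in SV5-NN4. The Wdr43 arrays did not overlap between these lines, with a difference of 0.48 (SE 0.14, adjusted p = 0.17). Bysl, a late assembly factor, read 7.68, 7.68 and 7.52 in NIH 3T3, 7.15, 7.58 and 7.43 in SV5 and 7.76, 7.82 and 8.28 in SV5-NN4. Its arrays also did not overlap, the difference was 0.57 (SE 0.17, adjusted p = 0.20), and its other probe set gave 0.70. Heatr1, which joins precursor transcription to processing, differed by 0.43 (SE 0.13, adjusted p = 0.19) and Imp4, a U3-associated protein, by 0.34 (SE 0.14, adjusted p = 0.35), each in 3 of 3 pairs. The other Heatr1 probe set gave -0.14. Nol6, Noc4l and Tsr1 differed by 0.28, 0.23 and 0.32, and Ddx10, an RNA helicase, by -0.17, with adjusted p from 0.41 to 0.85.

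Of the 13 large subunit factors, 11 were higher in SV5-NN4 than in SV5 and 6 in 3 of 3 pairs, with a median of 0.197 and 3 at an unadjusted p under 0.05. Noc2l, of the nucleolar complex that accompanies the large subunit precursor, differed most. It read 6.31, 5.33 and 7.34 in NIH 3T3, 6.79, 5.61 and 6.92 in SV5 and 7.41, 6.45 and 7.92 in SV5-NN4. Every pair was higher in SV5-NN4 than in SV5, by 0.61, 0.84 and 1.0, although the lines overlapped across numbers. The difference was 0.82 (SE 0.18, 1.76-fold, adjusted p = 0.098). The PeBoW complex, formed by Pes1, Bop1 and Wdr12, had unequal values: Bop1 differed by 0.39 (SE 0.14, adjusted p = 0.28), Pes1 by 0.20 (SE 0.22, adjusted p = 0.87) and Wdr12 by 0.02 (SE 0.15, adjusted p = 0.99), and these differences were not tested against each other. Ebna1bp2, an early factor, differed by 0.56 (SE 0.19, adjusted p = 0.28), with pairs of 0.63, -0.01 and 1.05. Nop2, an rRNA methyltransferase, read 8.75, 8.53 and 8.59 in NIH 3T3, 8.45, 8.45 and 8.25 in SV5 and 8.59, 8.52 and 8.78 in SV5-NN4, a difference from SV5 of 0.24 (SE 0.14, adjusted p = 0.57) with no overlap between the clones. Nle1, Ppan, Rrp1b, Rrs1 and Nip7 lay between 0.13 and 0.29, while the helicase Ddx18 and Brix1 differed by -0.12 and -0.10, with adjusted p from 0.49 to 0.97 over these 7 genes.

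The abundant nucleolar proteins were mixed in direction. Of 5 genes 3 were higher in SV5-NN4 than in SV5, with a median of 0.091. Npm1 (nucleophosmin), a histone and ribosome chaperone, read 11.76, 9.54 and 11.75 in NIH 3T3, 11.58, 10.90 and 11.99 in SV5 and 11.34, 10.28 and 11.61 in SV5-NN4. It was lower in SV5-NN4 than in SV5 in 3 of 3 pairs, by 0.25, 0.62 and 0.39 in size, with a difference of -0.42 (SE 0.27, adjusted p = 0.67), and its other probe set gave -0.72. Ncl (nucleolin), which binds the nascent precursor, read 9.77, 6.47 and 11.86 in NIH 3T3, 10.14, 9.04 and 11.76 in SV5 and 10.46, 8.25 and 12.20 in SV5-NN4. The replicate numbers of Ncl were several log2 units apart in every line, and its difference between SV5-NN4 and SV5 was -0.01 (SE 0.45). Mybbp1a, a nucleolar regulator that binds Myb and p53, varied little within each line. It read 10.12, 10.12 and 10.12 in NIH 3T3, 9.98, 9.97 and 9.81 in SV5 and 10.35, 10.26 and 10.26 in SV5-NN4. The 3 lines did not overlap in Mybbp1a in any comparison, with SV5 lowest and SV5-NN4 highest, but no difference passed the test: -0.20 (SE 0.11, adjusted p = 0.47) for SV5 minus NIH 3T3, 0.37 (adjusted p = 0.20) for SV5-NN4 minus SV5 and 0.17 (adjusted p = 0.49) for SV5-NN4 minus NIH 3T3. Its other probe set gave 0.38, 0.19 and 0.57, so the low value of SV5 was not seen there. Gnl3 (nucleostemin), a GTPase, differed by 0.15 between SV5-NN4 and SV5. The probe sets of the helicase Ddx21 gave unequal values: the brightest differed by 0.09 (SE 0.33, adjusted p = 0.98) with 1 of 3 pairs higher, and the other, with a mean level of 5.89, by 0.80 (SE 0.14, 1.74-fold, adjusted p = 0.054 in limma) with 3 of 3 pairs higher. That adjusted p was the lowest of the 70 member probe sets in this comparison.

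On their brightest probe sets, the 3 measured subunits of RNA polymerase I had differences of 0.21 to 0.23 in SV5-NN4 minus SV5, with adjusted p of 0.70 to 0.81 in limma. Their other probe sets were lower, so that Polr1a ranged from -0.03 to 0.22 and Polr1c from 0.01 to 0.21. Polr1b, the second-largest subunit, read 6.22, 6.04 and 6.46 in NIH 3T3, 6.10, 6.33 and 6.69 in SV5 and 6.25, 6.14 and 7.40 in SV5-NN4, and the value of 7.40 stood above the rest. Polr1a, the largest subunit, read 7.35, 7.85 and 6.33 in NIH 3T3, 6.56, 7.15 and 6.22 in SV5 and 6.84, 7.47 and 6.28 in SV5-NN4. On its brightest probe set it was lower in both clones than in NIH 3T3 in 3 of 3 pairs. The difference was -0.54 (SE 0.16, adjusted p = 0.21 in limma) in SV5 and -0.31 (SE 0.16, adjusted p = 0.36) in SV5-NN4. The 3 probe sets of Polr1a disagreed in sign, from -0.54 to 0.20 in SV5 minus NIH 3T3 and from -0.31 to 0.31 in SV5-NN4 minus NIH 3T3. Polr1c, shared with polymerase III, differed by -0.25 in SV5 minus NIH 3T3 (SE 0.18, adjusted p = 0.56 in limma), but its other probe set gave 0.45.

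**Figure D4:**
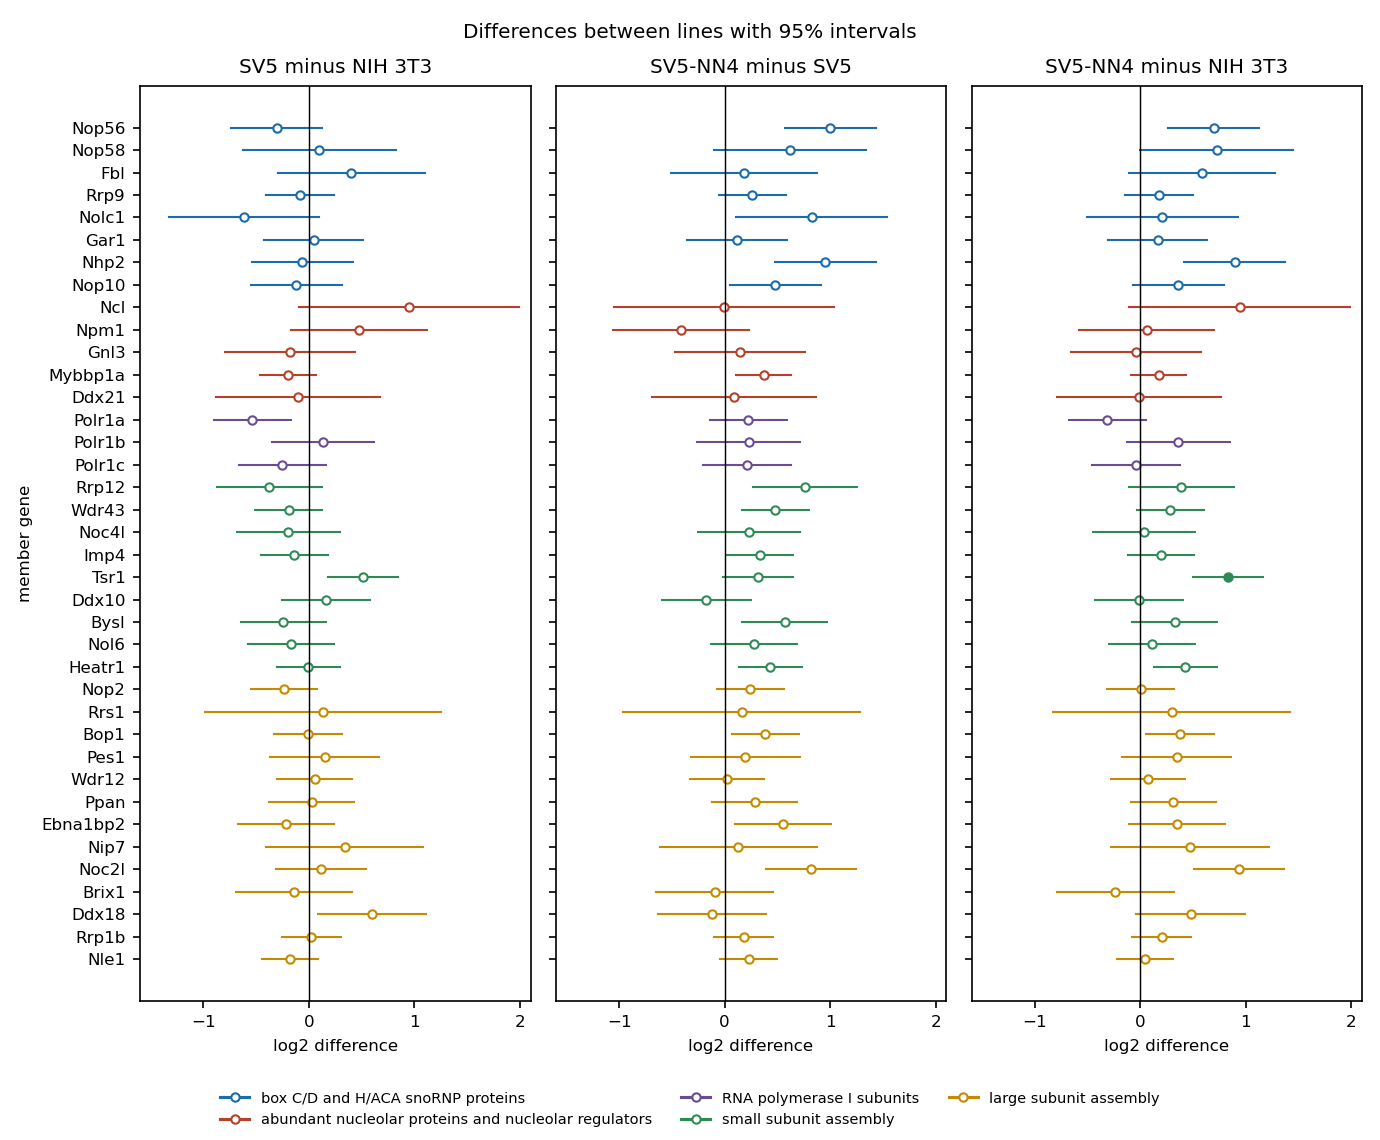
Log2 differences (points) with 95% intervals (bars) of the 38 members in the 3 comparisons, coloured by role; filled points have an adjusted p under 0.05. The filled point is Tsr1 in SV5-NN4 minus NIH 3T3, and in the middle panel 33 of 38 points lie to the right of 0.

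SV5 was compared with NIH 3T3 to ask what transformation by T antigen changes. The members did not move together: 16 of 38 had a difference above 0, against 44.8% of all genes and 58.5% of genes at or above the median level, and the median was -0.075, against -0.033. Adjusted calls numbered 0 of 38, against a background of 0.0484%, with adjusted p from 0.19 to 0.99 in limma. At an unadjusted p under 0.05, Tsr1 and Ddx18 were higher and Polr1a was lower (2 and 1 of 38, against 9.07% and 5.95% of all genes, and 14.5% higher among genes at or above the median level). Only Tsr1 was higher in 3 of 3 pairs (against 13.4% of all genes and 19.3% of genes at or above the median level), and 7 members were lower in 3 of 3 (against 17.3% and 11.8%). The arrays of Mybbp1a and Nop2 in SV5 lay below all of NIH 3T3 (2 of 38, against 2.27% of all genes and 2.34% of genes at or above the median level), and 0 members lay above (against 2.31% and 3.46%). The pair medians differed in sign, at -0.163, 0.168 and -0.174. Ncl had the highest difference, 0.95 (SE 0.45, adjusted p = 0.39), most of it from replicate 2, where SV5 exceeded NIH 3T3 by 2.57 against 0.37 and -0.10 in the other pairs; its 4 probe sets ranged from -0.15 to 0.95. Nolc1 had the lowest, -0.61 (SE 0.30, adjusted p = 0.41), most of it from replicate 1, at -1.58. The 95% intervals of all members lay within -1.33 and 1.99, and 6 reached 1 or more, so a doubling of those 6 lay within the error. The smallest difference called in any gene of this comparison was 1.13 in size. The count above 0 came to 10 without SV5 replicate 2, and the 2 genes higher at an unadjusted p under 0.05 became 4 without NIH 3T3 replicate 1 or 3, and 1 without NIH 3T3 replicate 2 or SV5 replicate 2.

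SV5-NN4 was set against NIH 3T3 to ask how the clone with both transgenes differs from the parent line; the comparison shares arrays with each of the others. Tsr1 rose: 1 of 38 members was called, against a background of 1.27% of genes called higher and 1.96% called in either direction. Tsr1, a factor of late small subunit maturation, read 4.90, 4.36 and 5.66 in NIH 3T3, 5.48, 4.75 and 6.24 in SV5 and 5.84, 4.86 and 6.73 in SV5-NN4. The lines overlapped in Tsr1, yet within every replicate number the order was NIH 3T3, SV5, SV5-NN4. Line means were 4.97 ± 0.65, 5.49 ± 0.74 and 5.81 ± 0.94 (SD, n = 3), and SV5-NN4 exceeded NIH 3T3 by 0.94, 0.49 and 1.07, a difference of 0.83 (SE 0.14, 1.78-fold, 95% interval 0.50 to 1.17, adjusted p = 0.044 in limma). The call did not hold without the block (adjusted p = 1), with a pseudocount of 16 or with only the compared lines, and leaving out any array other than NIH 3T3 replicate 1 ended it, with adjusted p up to 0.24.

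The other members of that comparison did not pass the test, and most lay above 0. Differences above 0 were found in 32 of 38 members (84.2%), against 44.9% of all genes and 56.8% of genes at or above the median level, with a median of 0.29 against -0.03, and 19 members (50%) were higher in 3 of 3 pairs, against 18% of all genes and 26.6% of genes at or above the median level. At an unadjusted p under 0.05 there were 7 higher members (18.4%), against 11.3% of all genes and 17.9% of genes at or above the median level, so this share was close to that of bright genes; 0 were lower, against 8.04%. The 7 were Nop56, Nop58, Nhp2, Tsr1, Heatr1, Bop1 and Noc2l. Noc2l came next to Tsr1, with 0.93 (SE 0.18, 1.91-fold, adjusted p = 0.059), followed by Nhp2 with 0.89 (SE 0.21, adjusted p = 0.087) and Nop56 with 0.70 (SE 0.18, adjusted p = 0.12). Only Mybbp1a and Bysl had every SV5-NN4 array above every NIH 3T3 array (2 of 38, or 5.26%, against 3.85% of all genes and 5.77% of genes at or above the median level), and 0 members had all below (against 3.26% and 3.91%). Polr1a alone was lower in 3 of 3 pairs (against 19.6% and 16.1%), but its 3 probe sets ranged from -0.31 to 0.31. The 7 became 14 without NIH 3T3 replicate 1 and 4 without SV5-NN4 replicate 3, and 0 with no block.

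Mycn, an activator of this gene group in other settings, was measured beside it. It read 6.27, 7.04 and 6.12 in NIH 3T3, 11.82, 11.09 and 12.57 in SV5 and 12.84, 12.21 and 13.23 in SV5-NN4. Mycn rose in SV5 by 5.35 (SE 0.41, 40.8-fold, adjusted p = 0.048 in limma) and in SV5-NN4 against NIH 3T3 by 6.28 (77.8-fold, adjusted p = 0.0019), and the clones did not overlap with NIH 3T3. Between the clones it differed by 0.93 (SE 0.41, adjusted p = 0.40). This rests on 1 of 3 probe sets, the others having means of 5.14 and 4.28 and differences of 0.14 and -0.27 in SV5 minus NIH 3T3, and the call in SV5 held in 4 of 8 other settings (adjusted p up to 0.53) and in 3 of 9 cases without 1 array (adjusted p from 0.0057 to 0.26). The part of Mycn in the ribosome biogenesis values was not tested. Myc read 7.63, 6.17 and 6.34, then 6.65, 6.52 and 7.62, then 6.71, 6.32 and 7.28, with adjusted p of 0.84, 0.96 and 0.96. The 13 genes of the Myc-Max-Mxd network had medians of -0.026, 0.01 and 0.053, and no other gene of the network was called.

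Other genes of ribosome assembly were listed by function, also with earlier results of these data known. They had lower medians than the members in SV5-NN4 minus SV5 and 0 calls there by limma. The medians were 0.101 over 36 other small subunit factors (27 above 0), 0.166 over 38 other large subunit factors (29 above 0), 0.181 over 12 other polymerase I genes (8 above 0) and 0.189 over 19 genes of RNase MRP and the exosome (16 above 0). At an unadjusted p under 0.05 the lists held 5, 7, 2 and 2 higher and 1, 1, 0 and 1 lower genes. Over all genes 7.32% were higher and 7.33% lower, and 10.9% of genes at or above the median level were higher. In SV5 minus NIH 3T3 these lists had medians of 0.072, -0.061, 0.171 and -0.133, with 0 calls and 2, 1, 1 and 0 higher and 1, 3, 1 and 1 lower genes at an unadjusted p under 0.05. The shares of all genes in that comparison were 9.07% higher and 5.95% lower. Against NIH 3T3, SV5-NN4 had medians of 0.201, 0.149, 0.353 and 0.061 and 2 calls, where 1.96% of all genes were called. Esf1, a small subunit processing factor, rose by 1.14 (SE 0.17, adjusted p = 0.031), and Zfp622, a late large subunit factor, fell by 0.85 (SE 0.12, adjusted p = 0.030); the Esf1 call held without 1 array in 3 of 9 cases and the Zfp622 call in 1 of 9.

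The genes for the ribosomal proteins themselves were mostly below 0 in SV5-NN4 minus SV5 and mostly above 0 in both comparisons with NIH 3T3. The list held the 39 measured genes whose symbols matched the naming of cytosolic ribosomal proteins. Of these, 7 were above 0 in SV5-NN4 minus SV5, with a median of -0.131. In SV5 minus NIH 3T3, 34 were above 0, with a median of 0.262. In SV5-NN4 minus NIH 3T3, 28 were above 0, with a median of 0.133. The shares above 0 over all genes were 52.2%, 44.8% and 44.9% in the same order. Among genes at or above the median level they were 51.4%, 58.5% and 56.8%. No ribosomal protein gene was called in any comparison by limma. At an unadjusted p under 0.05 there were 1 higher and 1 lower in SV5-NN4 minus SV5. There were 11 higher and 1 lower in SV5 minus NIH 3T3, and 3 higher and 0 lower in SV5-NN4 minus NIH 3T3. Over all genes 7.32%, 9.07% and 11.3% were higher in the same order, and 7.33%, 5.95% and 8.04% lower. Among genes at or above the median level 10.9%, 14.5% and 17.9% were higher. The pair medians were not of 1 sign, at -0.156, -0.311 and 0.091 for SV5-NN4 minus SV5 and at 0.396, 0.664 and -0.19 for SV5 minus NIH 3T3.

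Genes of DNA replication and mitosis were higher in SV5-NN4 in the same arrays. All 19 measured genes were above 0 against SV5, with a median of 1.035, and 18 were higher in 3 of 3 pairs. Over all genes these shares were 52.2% and 22%, and 1.05% were called. Mcm7, a subunit of the replicative helicase, rose by 1.01 (adjusted p = 0.024), Cdt1, which loads that helicase, by 1.42 (adjusted p = 0.035) and the mitotic kinase Aurka by 1.39 (adjusted p = 0.014). Against NIH 3T3 the median was 1.117 and 6 were called, where 1.96% of all genes were called. In SV5 minus NIH 3T3 the median was 0.112 and 0 were called, where 0.0484% of all genes were called. The part of this shift in the ribosome biogenesis values was not tested.

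**Figure D5:**
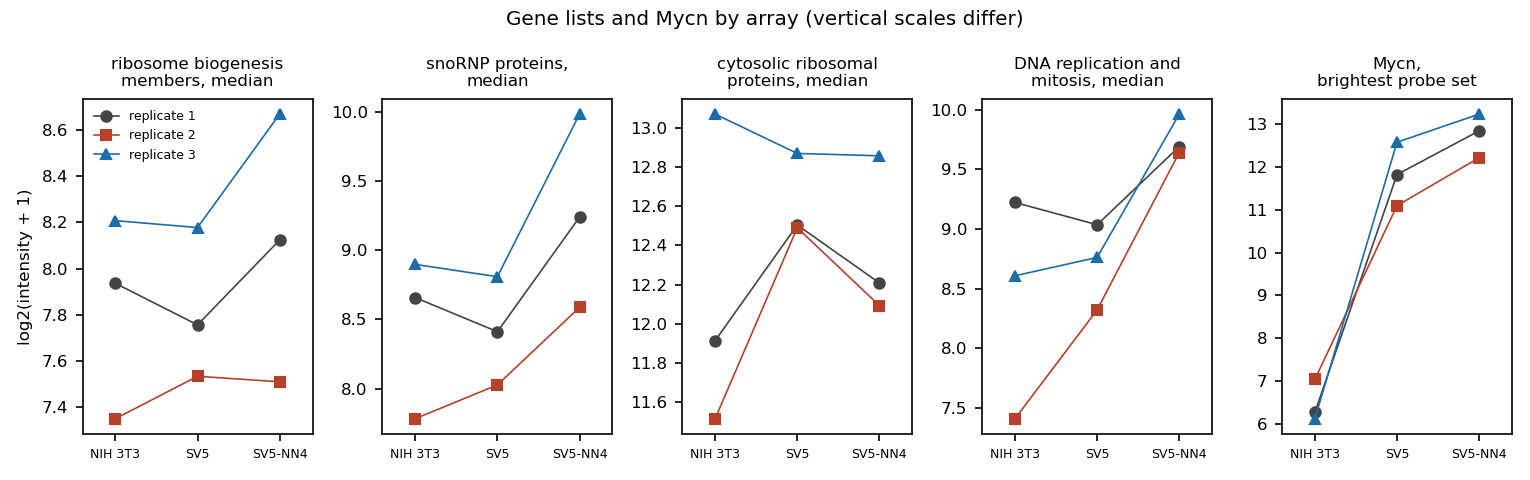
Medians of 4 gene lists and the value of Mycn on each array as log2(intensity + 1) (vertical axes, scales differ), with lines joining arrays of equal replicate number. The snoRNP and the replication and mitosis medians are higher in SV5-NN4 than in SV5 on every replicate number, the member median is so on 2 of 3, and Mycn separates both clones from NIH 3T3.

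Probe sets that target the same gene did not always give the same sign. Of the 25 members with several probe sets, all probe sets had 1 sign in 16 for SV5-NN4 minus SV5, 14 for SV5-NN4 minus NIH 3T3 and 11 for SV5 minus NIH 3T3. Over all 70 member probe sets, 54, 53 and 35 were above 0 in these comparisons. Nop56, Nhp2, Bysl, Nop10 and Wdr43 were higher in SV5-NN4 than in SV5 on each of their probe sets. So were Ddx21, Ebna1bp2, Fbl, Imp4, Mybbp1a, Nip7, Noc4l and Polr1c, while Npm1, Ddx10 and Brix1 were lower on each. In Heatr1, Pes1, Nol6, Nolc1, Polr1a, Ncl, Ddx18, Rrp1b and Wdr12 the probe sets disagreed in sign between SV5-NN4 and SV5.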

How the data were processed

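RNA of 3 mouse cell lines was measured on 9 arrays. The authors deposited linear intensities, made with RMA per the submitters' processing notes. No settings of RMA are stated, so a shift shared by most transcripts may have been removed. Values were used as log2(intensity + 1), with a pseudocount of 1. Of 22690 probe sets, 20393 had 1 symbol, 691 several and 1606 none; 20364 were found by gene ID in RefSeq's table. Differences were fitted with limma 3.58.1 in R 4.3.3 (lmFit with line and replicate number, eBayes), adjusted by Benjamini-Hochberg over all probe sets and called at an adjusted p under 0.05. The limma code was tested on simulated data.

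After the mean of each line was subtracted, the 9 pairs of equal-numbered arrays of different lines correlated at r of 0.26 to 0.84 over all probe sets, and the 18 other pairs at -0.73 to 0.11. Over the members the ranges were 0.06 to 0.94 and -0.87 to 0.32. The subtraction itself pushes the other pairs negative where equal-numbered pairs are positive. Probe sets are not replicates, so no p is given.

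Array values were given for called members and for the largest difference of each role group in SV5-NN4 minus SV5. They were also given for the highest and lowest in SV5 minus NIH 3T3. Of the other lists, up to 5 called genes per comparison were to be named, and Myc and Mycn always. The replication and mitosis genes called in SV5-NN4 minus NIH 3T3 were counted but not named. Nhp2, Mybbp1a, Wdr43, Bysl, Nop2, Rrp9 and Polr1a were added after their values were seen. Members and lists were chosen with earlier results of these data known, so no test was run over a list. Alternatives changed the block, the pseudocount, the level filter, the lines fitted, the centring, the normalization, the variance trend, the choice of probe set and the arrays left out.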

Additional observations from a re-analysis of the deposited data

How the results depend on the processing

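The medians of the members kept their side of 0 in SV5-NN4 minus SV5 (0.199 to 0.355) and in SV5-NN4 minus NIH 3T3 (0.169 to 0.337) under every alternative run, and in SV5 minus NIH 3T3 they ran from -0.179 to 0.039. The arrays with equal replicate numbers were taken as pairs by the rule that set the gene group and by their correlation, although no label says what they share. With no replicate block, the members higher at an unadjusted p under 0.05 were 0 in SV5 minus NIH 3T3, 5 in SV5-NN4 minus SV5 and 0 in SV5-NN4 minus NIH 3T3, and 0 members were called in the last.

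In SV5 minus NIH 3T3 that count was 1 with only probe sets at or above the median level, with only the compared lines, with quantile normalization and with probe sets averaged per gene, and 1 to 4 without 1 array. In SV5-NN4 minus SV5 it was 9 with probe sets averaged per gene, 17 of 70 over all probe sets and 6 to 15 without 1 array. There 1 member was called with the level filter and 0 to 3 without 1 array. With only the compared lines 4 were called (Nhp2, Noc2l, Nolc1 and Nop56, against 7.83% of genes). In SV5-NN4 minus NIH 3T3 it was 12 of 70 probe sets (17.1%), against 7 of 38 members (18.4%) in the main fit. It was 4 to 14 without 1 array. There 0 members were called with a pseudocount of 16 or only the compared lines. With probe sets averaged per gene 2 were called (Noc2l and Tsr1), and without 1 array 0 to 2. The level filter, which leaves out Tsr1, called Noc2l (adjusted p = 0.047 in limma).

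Of 575 values of single genes under an alternative, 505 kept direction and side of the threshold, 41 lost a call, 12 gained one and 17 turned direction. Most of the 505 were differences that the main fit did not call. Of the main calls, Tsr1 held in 4 of 7 other settings and 1 of 9 cases without 1 array, Esf1 in 5 of 8 and 3 of 9, and Zfp622 in 5 of 8 and 1 of 9. The Mycn call held in 4 of 8 and 3 of 9 in SV5 minus NIH 3T3, and in 8 of 8 and 9 of 9 in SV5-NN4 minus NIH 3T3. The 17 that turned direction were differences that were not called. Ncl in SV5-NN4 minus SV5 became 0.001 with a pseudocount of 16, 0.006 with centred arrays, 0.01 with quantile normalization, 0.131 with its probe sets averaged and -0.38 to 0.593 without 1 array (0.029 without SV5-NN4 replicate 3). Npm1 in SV5-NN4 minus NIH 3T3 became -0.037 with quantile normalization, -0.02 with its probe sets averaged and -0.333 to 0.341 without 1 array. Without 1 array, Noc2l in SV5 minus NIH 3T3 ran from -0.027 to 0.336, Nolc1 in SV5-NN4 minus NIH 3T3 from -0.016 to 0.648, and Polr1b from -0.036 to 0.278 in SV5 minus NIH 3T3 and from -0.04 to 0.394 in SV5-NN4 minus SV5. The causes were not tested.

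With 3 arrays per line the standard errors of the members were 0.11 to 0.48, and the smallest differences called in any gene were 1.13, 0.76 and 0.61 in size in SV5 minus NIH 3T3, SV5-NN4 minus SV5 and SV5-NN4 minus NIH 3T3. These sizes are not limits of detection, since a call depends on the standard error of each gene. Nop56, at 1.0 in SV5-NN4 minus SV5, was not called. A difference that was not called may still be present.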
